A study of Mus musculus with 9 samples.

Results

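Aminoacyl-tRNA synthesis genes were described in RNA sequencing of the mouse substantia nigra pars compacta, the midbrain nucleus that holds the dopamine neurons lost in Parkinson's disease. The 9 libraries fell into 3 groups of 3: mice given MPTP and a ketogenic diet of medium-chain triglycerides (labelled MPTP + MCT-KD, written MPTP_MCTKD here), mice given MPTP alone (MPTP), and controls (Ctrl). MPTP is a toxin that is oxidised in glia to a product which damages dopamine neurons by blocking complex I of their respiratory chain. Every group that received the diet also received MPTP, and no source used here gives the strain, age, sex, dose or length of diet. Whether each library is a separate animal is not stated in the labels, so a p-value here covers library-to-library spread, which may be technical.

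Members were chosen by annotation and level, level being measured in these libraries: all genes with an Ensembl identifier, the KEGG annotation "Aminoacyl-tRNA biosynthesis" and a mean FPKM of at least 0.5. FPKM is fragments per kilobase of transcript and per M mapped fragments (M stands for mega). They numbered 49 of the 27339 genes in the deposited table. Since the same FPKM minimum served as the filter for testing, every member was among the 14949 genes tested. The annotation covers 50 genes in all, and the one left out was Ttc22, with a mean of 0.414 FPKM (0.190 to 0.579 over the libraries). The member nearest above the minimum was Wars2, with a mean of 1.60 FPKM.

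An aminoacyl-tRNA synthetase joins an amino acid to the tRNAs that read its codons, and so sets which residue a codon stands for. Mammalian cells translate in the cytosol and, separately, inside mitochondria, and most amino acids have one nuclear gene for each compartment, the mitochondrial one usually carrying the suffix 2. Inherited defects of the cytosolic enzymes Gars and Yars damage peripheral nerves in people, and defects of many mitochondrial enzymes cause brain disease. When amino acids run short, uncharged tRNA activates the kinase GCN2 (Eif2ak4), and the transcription factor ATF4 then raises many cytosolic synthetase genes along with genes for amino acid synthesis and uptake.

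By role, 21 members were cytosolic synthetases and 21 worked in mitochondria. Gars and Kars, the glycine and lysine enzymes, serve both compartments from one gene and were counted as cytosolic. Tarsl2 also ends in 2 but is a second cytosolic threonine enzyme. The mitochondrial class held 17 synthetases and 4 accessory enzymes. Of these, Gatb, Gatc and Qrsl1 form the amidotransferase that makes glutaminyl-tRNA from glutamyl-tRNA in mitochondria, and Mtfmt formylates the initiator methionyl-tRNA. A further 2 members, Pstk and Sepsecs, turn seryl-tRNA into selenocysteinyl-tRNA. The remaining 5 members (Lrrc47, Esf1, Tm2d3, 5330417C22Rik and 9330182L06Rik) carry Swiss-Prot names in the deposited table that are not those of tRNA enzymes, which leaves 44 members with a named role in tRNA charging.

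ATF4 binds composite sites called C/EBP-ATF response elements, and the letters TGATGNAA (N being any base) were searched on both strands from 250 bases before to 50 bases after each gene's start in RefSeq promoters (GRCm38.p6). A promoter entry was matched for 36 of 49 members. The letters were found in 5 of 14 cytosolic synthetases with an entry and in 0 of 17 mitochondrial enzymes, against 1219 of 27025 promoters (4.51%) over all genes. None of the 5 other members with an entry held them. Among 22 matched genes of amino acid synthesis, uptake and the ATF4 response, 8 held them (36.4%). A match is a run of letters and not a measured binding site, and its absence from this window says nothing about ATF4. The 5 cytosolic genes are shown because they carry the element's letters, with Asns, the asparagine synthetase gene in which such an element is well known, beside them. Each is read 5′ to 3′ on the strand of its gene, and capitals mark the letters or their reverse complement.
Aars, 112 bases before its start (chr8:111033714-111033753, plus strand): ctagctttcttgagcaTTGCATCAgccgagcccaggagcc
Gars, 30 bases before its start (chr6:55037955-55037994, plus strand): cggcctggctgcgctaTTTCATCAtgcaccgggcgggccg
Tars, 15 bases before its start (chr15:11399659-11399689, minus strand): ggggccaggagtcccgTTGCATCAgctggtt
Iars, within its first transcribed bases (chr13:49682126-49682155, plus strand): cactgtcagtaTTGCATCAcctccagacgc
Yars, within its first transcribed bases (chr4:129189895-129189924, plus strand): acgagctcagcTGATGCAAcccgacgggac
Asns, 23 bases before its start (chr6:7693210-7693248, minus strand): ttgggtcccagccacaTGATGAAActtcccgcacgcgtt
The Tars, Iars and Aars sites printed above read TTGCATCA, the Gars site reads TTTCATCA, and Yars holds the forward form TGATGCAA. Aars held a second match among its first transcribed bases. Starts are those of RefSeq, and GENCODE M21 begins the Aars, Iars, Yars and Tars genes further upstream.

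Total counts were 33.2 to 40 M per library, and members took 0.239% to 0.282% of them, the highest share being that of MPTP 1. Dopamine neuron markers were present in all libraries, and 8 of 8 lay below Ctrl in both MPTP groups. Their summed level was 564 to 694 CPM (counts per M counts) in MPTP_MCTKD, 588 to 674 CPM in MPTP, against 708 to 846 CPM in Ctrl. In bulk tissue, fewer cells of a type and less RNA per cell cannot be told apart. The summed level of 5 oligodendrocyte markers was 10320 to 11460 CPM in MPTP_MCTKD, 8754 to 10670 CPM in MPTP, against 8124 to 10030 CPM in Ctrl. The choroid plexus sum reached 1200 CPM in Ctrl 3 and was at most 91.2 CPM in every other library. MPTP 1 also had the highest sum of 4 thalamic neuron markers, 1057 CPM, against 476 to 940 CPM in the other libraries. Its sums of 3 serotonin neuron and 5 red cell markers, 17.7 and 98.4 CPM, were the lowest of all libraries. MPTP_MCTKD 1 came next on the thalamic and serotonin sums, with 940 and 22.1 CPM, while its red cell sum was 181 CPM. Red cell sums were 135 to 181 CPM in MPTP_MCTKD, 98.4 to 167 CPM in MPTP, against 166 to 281 CPM in Ctrl. At an unadjusted p under 0.05 by edgeR, 3 of 5 red cell and 4 of 8 dopamine neuron markers were lower in MPTP than in Ctrl. The share over all genes was 2.69% lower and 2.68% higher. At that threshold 2 of 5 oligodendrocyte, 0 of 5 astrocyte and 1 of 5 microglia markers were higher. In MPTP_MCTKD against Ctrl, 4 of 5 oligodendrocyte, 2 of 5 astrocyte and 2 of 5 microglia markers were higher. There 2 of 8 dopamine neuron and 0 of 5 red cell markers were lower, and the share over all genes was 3.36% in each direction. The part of these markers in the results below was not tested.

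Cytosolic synthetases were the more abundant class per transcript length. Their mean levels ran from 7.16 FPKM (Tars) to 89.1 FPKM (Sars), with a median of 18.1 FPKM over the 21 genes. The serine enzyme Sars (chromosome 3, 108424865 to 108445209, GRCm38) and the asparagine enzyme Nars led. Sars had 86.4, 88.5 and 84.4 FPKM in MPTP_MCTKD, 94.5, 87.7 and 92.9 FPKM in MPTP, and 87.8, 88.3 and 91.6 FPKM in Ctrl. Nars had 87.1, 92.05 and 86.6 FPKM in MPTP_MCTKD, 90.1, 86.1 and 92.2 FPKM in MPTP, and 86.2, 90.6 and 87.3 FPKM in Ctrl. The ranges of the pair overlapped, so the order between them was within the spread of the libraries.

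Gars, the glycine enzyme of both compartments, followed at 53.2 ± 3.09 FPKM, and Kars, the lysine enzyme of both, averaged 35.1 ± 0.995 FPKM (SD over 9 libraries). At the low end stood the enzymes for valine, leucine and threonine, with Vars at 10.3 ± 0.756, Lars at 8.27 ± 0.782 and Tars at 7.16 ± 0.737 FPKM (SD over 9 libraries). The most even cytosolic genes over the libraries were Kars, Nars and Aars, whose coefficients of variation were 2.83%, 2.85% and 2.88%. Mars, the methionine enzyme, varied most, at 10.8%, and the class median was 5.97%.

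Mitochondrial enzymes ranged from 1.60 FPKM (Wars2) to 18.6 FPKM (Lars2), with a median of 5.55 FPKM. The place of Lars2 at the top rests on 1 library, as described further on. Lars2 apart, Gatc led with 16.2 ± 1.19 FPKM, followed by the isoleucine enzyme Iars2 with 11.6 ± 0.486 FPKM (SD over 9 libraries). Exons of Iars2 overlap those of Rab3gap2 on the other strand over 22.9% of their bases, and no source used here gives the strand setting of the counting. The lowest were the enzymes for proline, glutamate and tryptophan, Pars2 at 2.40 ± 0.877, Ears2 at 2.39 ± 0.244 and Wars2 at 1.60 ± 0.199 FPKM (SD over 9 libraries). For Pars2 the transcript length implied by its counts and FPKM differed 2.18-fold between libraries, the most of any member. The other amidotransferase genes Qrsl1 and Gatb averaged 5.73 ± 0.331 and 4.27 ± 0.330 FPKM, and Mtfmt averaged 4.54 ± 0.386 FPKM (SD over 9 libraries).

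**Figure D1:**
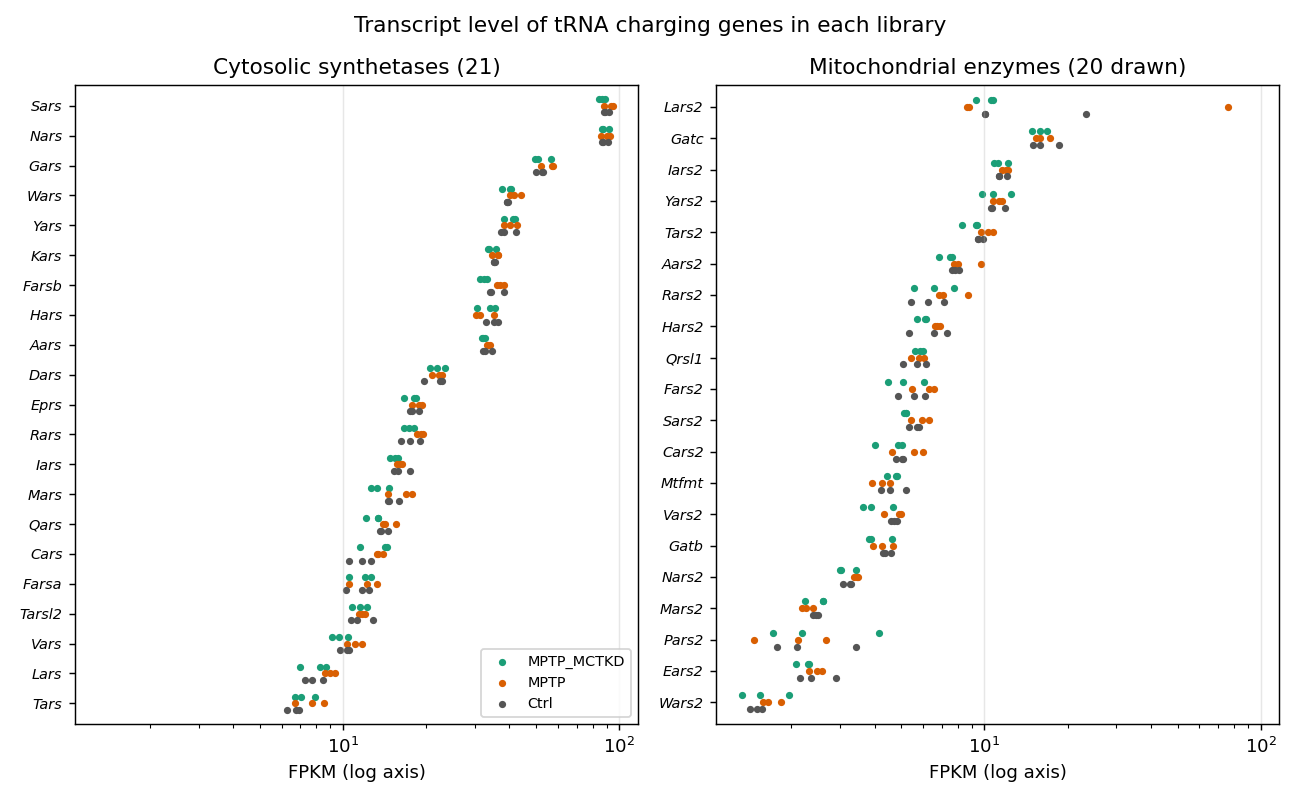
FPKM (log axis) of the 21 cytosolic synthetases and 20 of the 21 mitochondrial enzymes, ordered by mean level, with 1 point per library coloured by group. Cytosolic means run from 7.16 to 89.1 FPKM and mitochondrial means from 1.60 to 18.6 FPKM, and Lars2 has 1 library far from the others.

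Of 14 amino acids with a synthetase of the same root name in each compartment (Farsa and Farsb with Fars2, and Eprs with Ears2 and Pars2, were not paired), the cytosolic transcript was the more abundant in every library for 12. The median ratio over the 9 libraries was 26.9 for Nars to Nars2, 26.3 for Wars to Wars2 and 16.2 for Sars to Sars2. It was 1.35 for Iars to Iars2, and the median over the 14 pairs was 3.90. The pair Tars to Tars2 went the other way, at 0.662 to 0.957 in the 9 libraries. This held for the pair and not for threonine as a whole, since Tarsl2 is cytosolic too. Tarsl2 averaged 11.6 ± 0.691 FPKM, against 9.60 ± 0.688 FPKM for Tars2 (SD over 9 libraries). In every library Tarsl2 alone lay above Tars2, so with Tarsl2 counted the cytosolic side was the more abundant. Lars to Lars2 ran from 0.118 to 1.06, the lowest value being that of MPTP 1.

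Of the pairs reported here, those for methionine, asparagine and cysteine had a ratio of FPKM that did not overlap between some 2 groups. They were singled out after their values were seen, and each pair was looked at in 3 comparisons. On CPM of single genes, 10.5% to 13.7% of all genes tested did not overlap in a comparison. Such a share was not computed for ratios. Mars to Mars2 was 5.94, 4.86 and 5.64 in MPTP_MCTKD, 7.36, 6.39 and 7.70 in MPTP, and 5.80, 6.47 and 6.10 in Ctrl. The MPTP_MCTKD libraries lay below the MPTP libraries without overlap, and each of these groups overlapped the Ctrl range. Nars to Nars2 lay the other way, at 26.9 to 28.9 in MPTP_MCTKD and 25.6 to 26.75 in MPTP, without overlap in FPKM only. On counts, the ratio in MPTP_MCTKD 2 (8599 to 430) lay below that in MPTP 3 (8858 to 440), so these groups overlapped. The transcript length of Nars2 implied by its counts and FPKM differed between libraries. Cars to Cars2 was 2.85 to 2.91 in MPTP_MCTKD, against 2.07 to 2.63 in Ctrl.

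**Figure D2:**
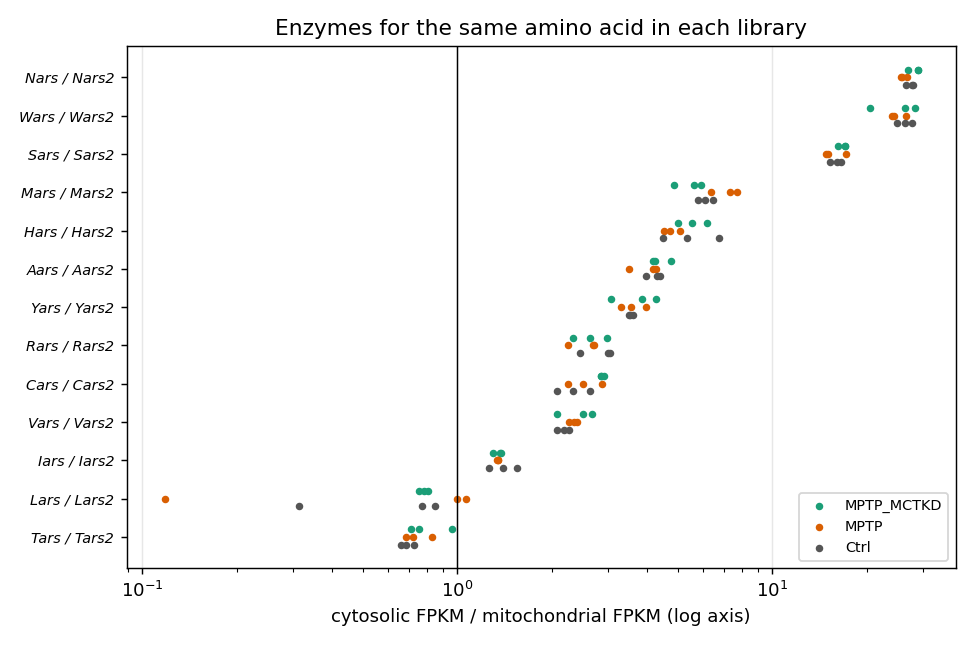
Ratio of cytosolic to mitochondrial FPKM (log axis) for 13 of the 14 amino acids, with 1 point per library coloured by group and a line at 1. For 11 of the pairs drawn every library lies above 1, for Tars / Tars2 every library lies below 1, and Lars / Lars2 reaches 0.118 in MPTP 1.

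Lars2, the mitochondrial leucine enzyme (chromosome 9, 123366927 to 123462666, GRCm38), differed between libraries of the same group more than any other member. It had 37.7, 43.8 and 43.8 CPM in MPTP_MCTKD, 317, 35.3 and 34.8 CPM in MPTP, and 40.9, 41.0 and 93.3 CPM in Ctrl. MPTP 1 alone was several times above the rest, Ctrl 3 stood next, and the other 7 libraries lay together. Behind the value of MPTP 1 were 11201 counts, which made up 45.0% of all counts of mitochondrial class genes in that library, against 8.47% to 20.04% in the other libraries. Without Lars2, the summed level of the class was 356 to 371 CPM in MPTP_MCTKD, 374 to 387 CPM in MPTP, against 366 to 373 CPM in Ctrl.

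The log2 fold change of Lars2 was -1.63 in MPTP_MCTKD against MPTP (adjusted p = 0.727), 1.15 in MPTP against Ctrl (adjusted p = 0.946) and -0.48 in MPTP_MCTKD against Ctrl (adjusted p = 0.946), with edgeR's quasi-likelihood test. Without MPTP 1 the first became 0.26 and the second -0.73, both with the sign turned. Without Ctrl 3 the third became 0.032. Beyond the stop codon, the reference Lars2 transcript holds 97 bases that are 94.8% identical to the annotated gene AA474408 and 72 bases that are 98.6% identical to Gm15564. Neither gene has a line in the count table. Whether reads of such copies were counted for Lars2 was not tested.

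**Figure D3:**
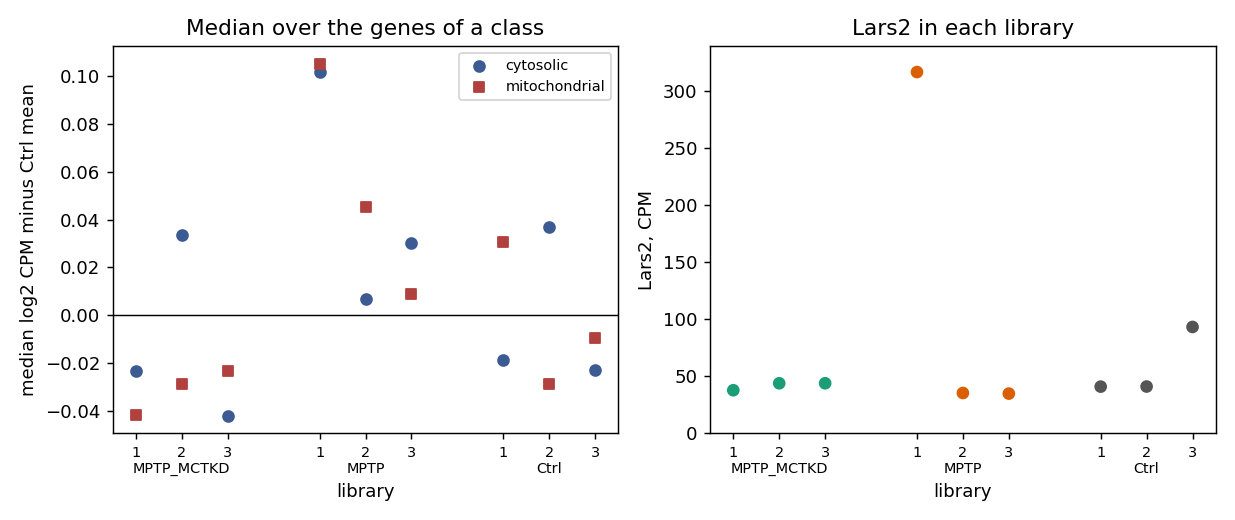
Left, the median over genes of each class of the log2 CPM minus the Ctrl mean, for each library (circles cytosolic, squares mitochondrial). Right, Lars2 in CPM. MPTP 1 has the highest median of both classes (0.10 for cytosolic and 0.11 for mitochondrial genes) and 317 CPM of Lars2.

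The comparison of MPTP with Ctrl asked what the toxin changed in these genes. No member passed the test, and most differed from Ctrl by a few percent. Of the 49 members 39 lay above Ctrl, including 19 of 21 cytosolic and 14 of 21 mitochondrial genes, against 49.6% of all genes tested above and 50.4% below. The median log2 fold change was 0.044 for cytosolic and 0.061 for mitochondrial members, and -0.00092 over all genes tested. For the 17 mitochondrial synthetases without the accessory enzymes it was 0.076. The cytosolic count moved most with MPTP 1. Without that library 13 of 21 cytosolic genes lay above Ctrl, with a median of 0.011, while the mitochondrial count was 13 of 21, with a median of 0.034, and 33 of the 49 members lay above. Without MPTP 2 the cytosolic median was 0.078, with 16 of 21 genes above.

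Library by library, the cytosolic median stood at 0.10, 0.0066 and 0.030 in MPTP, and at -0.019, 0.037 and -0.023 in Ctrl (log2 CPM minus the Ctrl mean). Thus 19 of 21 cytosolic genes were above the Ctrl mean in MPTP 1, against 11 in MPTP 2 and 13 in MPTP 3, with 8, 14 and 8 in the Ctrl libraries themselves. The mitochondrial median was 0.11, 0.045 and 0.0087 in MPTP, and 0.031, -0.029 and -0.0098 in Ctrl. When each gene was instead set against the mean of its own group, the library medians had an SD of 0.039 for each class. The cytosolic medians of MPTP 2 and MPTP 3 lay within the Ctrl range, and of their mitochondrial medians that of MPTP 2 lay above it.

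Among cytosolic genes the smallest p belonged to Lars, the leucine enzyme. It had 36.9, 35.0 and 37.1 CPM in MPTP, and 34.5, 31.7 and 29.2 CPM in Ctrl. All MPTP libraries lay above all Ctrl libraries, and the log2 fold change was 0.19 (SE 0.089, adjusted p = 0.904). The threonine enzyme Tars followed, with 36.5, 28.2 and 31.8 CPM in MPTP, against 28.6, 29.5 and 26.0 CPM in Ctrl. Here MPTP 2 fell inside the Ctrl range, and the log2 fold change was 0.20 (adjusted p = 0.911).

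Cars, the cysteine enzyme, averaged 38.2 ± 2.29 CPM in MPTP, against 34.2 ± 2.14 CPM in Ctrl (SD, n = 3 each; adjusted p = 0.915), and Wars, the tryptophan enzyme, averaged 124 ± 3.87 CPM in MPTP, against 117 ± 0.870 CPM in Ctrl (SD, n = 3 each; adjusted p = 0.916). For both genes the groups did not overlap. Gars, which carries the element's letters, averaged 139 ± 7.58 CPM in MPTP, against 130 ± 5.47 CPM in Ctrl (adjusted p = 0.922). Aars, which carries them too, was at 202 ± 5.97 CPM in MPTP, against 200 ± 9.95 CPM in Ctrl, a log2 fold change of 0.013 with a 95% interval of -0.093 to 0.12. Kars was at 77.9 ± 3.83 CPM in MPTP, against 77.6 ± 0.628 CPM in Ctrl, with an interval of -0.11 to 0.12 on the log2 scale.

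The mitochondrial arginine enzyme Rars2 had the smallest p of its class. It had 14.1, 13.4 and 16.7 CPM in MPTP, and 14.1, 10.8 and 12.1 CPM in Ctrl. MPTP 2 lay below the highest Ctrl library, and the log2 fold change was 0.26 (SE 0.14, adjusted p = 0.915). Mars2, the methionine enzyme, stood on the other side, with 27.1 ± 1.79 CPM in MPTP, against 29.2 ± 0.865 CPM in Ctrl (adjusted p = 0.935). Of the accessory enzymes, Gatb, Gatc and Mtfmt had log2 fold changes of -0.10, -0.030 and -0.14, and Qrsl1 of 0.025.

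At an unadjusted p under 0.05 there were 2 members higher, Lars and 9330182L06Rik, and 0 lower, against 2.68% and 2.69% of all genes (5.36% in both directions together). With 1 library left out this count ran from 0 (without Ctrl 3, MPTP 1 or MPTP_MCTKD 3) to 3 (without MPTP 2). All adjusted p-values of members were 0.904 or above, and 0.0134% of all genes passed at an adjusted p under 0.05. DESeq2 called 14 genes, 0 of them members, and limma 0, and at an unadjusted p under 0.05 DESeq2 gave 0 members and limma 1. The groups did not overlap for 7 members, all higher in MPTP (14.3% of the 49), against 5.14% of all genes higher and 5.41% lower. Among them were Cars, Lars, Wars, Wars2, Sepsecs and 9330182L06Rik. The 95% intervals of 48 members, all but Lars2, lay within a 1.5-fold change in either direction.

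The comparison of MPTP_MCTKD with MPTP asked what the diet changed in mice given the toxin. Again no member passed the test. Of the 49 members 39 lay below MPTP, including 17 of 21 cytosolic and 16 of 21 mitochondrial genes, against 49.8% of all genes below and 50.2% above. The median log2 fold change was -0.045 for cytosolic and -0.074 for mitochondrial members, and 0.00056 over all genes. For the 17 mitochondrial synthetases alone, without the accessory enzymes, it was -0.14. Both comparisons share the MPTP libraries, and MPTP 1 weighed here too: without it 14 of 21 cytosolic genes lay below MPTP, with a median of -0.015, and 13 of 21 mitochondrial genes, with a median of -0.052. Without MPTP 2 the values moved the other way, to 19 of 21 cytosolic genes below with a median of -0.082, and limma on log2(FPKM + 0.1) gave 19 of 21 with a median of -0.072. For the mitochondrial genes limma gave a median of -0.13, and the fit without MPTP_MCTKD 3 gave -0.137.

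Mars, the methionine enzyme (chromosome 10, 127296221 to 127311786, GRCm38), had the smallest p of all members. It had 41.9, 39.7 and 46.0 CPM in MPTP_MCTKD, and 55.8, 45.2 and 51.2 CPM in MPTP. MPTP_MCTKD 3 lay just above the lowest MPTP library, and the log2 fold change was -0.25 (SE 0.086, adjusted p = 0.614). Without MPTP 1 it was -0.18. The 3′ end of Mars shares 68 bases with Ddit3, which lies on the other strand. Ddit3, a transcription factor of the stress response, averaged 17.2 ± 0.917 CPM in MPTP_MCTKD and 17.8 ± 2.22 CPM in MPTP (SD, n = 3 each).

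The other cytosolic genes with an unadjusted p under 0.05 were all lower as well. Vars, the valine enzyme, had 39.7, 45.3 and 41.8 CPM in MPTP_MCTKD, and 45.0, 47.8 and 49.0 CPM in MPTP (log2 fold change -0.16, adjusted p = 0.630). Farsb, the beta subunit of the phenylalanine enzyme, had 65.9, 64.0 and 61.2 CPM in MPTP_MCTKD, and 70.3, 73.9 and 67.0 CPM in MPTP (log2 fold change -0.14, adjusted p = 0.630). Qars, the glutamine enzyme, had 39.9, 39.5 and 35.8 CPM in MPTP_MCTKD, and 42.4, 40.9 and 44.4 CPM in MPTP (log2 fold change -0.15, adjusted p = 0.638). The groups did not overlap for Farsb and Qars, and overlapped for Vars by 1 library. Farsa, the partner subunit of Farsb, had a log2 fold change of -0.013.

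Of the cytosolic genes that carry the element's letters, Aars averaged 195 ± 2.15 CPM in MPTP_MCTKD and 202 ± 5.97 CPM in MPTP, Gars 133 ± 9.34 CPM in MPTP_MCTKD and 139 ± 7.58 CPM in MPTP, and Yars 125 ± 6.23 CPM in MPTP_MCTKD and 123 ± 7.86 CPM in MPTP (SD, n = 3 each). Iars averaged 72.1 ± 2.10 CPM in MPTP_MCTKD and 73.9 ± 0.592 CPM in MPTP, and Tars 30.7 ± 2.66 CPM in MPTP_MCTKD and 32.2 ± 4.19 CPM in MPTP. For none of the 5 did the groups separate on CPM. On FPKM those of Aars did, with 32.0, 32.5 and 31.8 FPKM in MPTP_MCTKD, and 34.0, 33.3 and 33.5 FPKM in MPTP.

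Among mitochondrial genes the smallest p belonged to the alanine enzyme Aars2. It had 27.3, 24.3 and 26.7 CPM in MPTP_MCTKD, and 34.7, 27.5 and 27.5 CPM in MPTP. The groups were apart by a narrow margin, with MPTP 1 well above the rest, and the log2 fold change was -0.20 (SE 0.096, adjusted p = 0.659). Tars2, the threonine enzyme, averaged 22.2 ± 2.03 CPM in MPTP_MCTKD and 24.8 ± 0.985 CPM in MPTP (SD, n = 3 each; adjusted p = 0.680). Vars2, the valine enzyme, averaged 18.9 ± 2.51 CPM in MPTP_MCTKD and 21.4 ± 1.39 CPM in MPTP (SD, n = 3 each; adjusted p = 0.697). Mtfmt was the one member to lie higher in all MPTP_MCTKD libraries than in all MPTP libraries, at 10.2 ± 0.450 CPM in MPTP_MCTKD and 9.10 ± 0.596 CPM in MPTP (adjusted p = 0.767).

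At an unadjusted p under 0.05 there were 4 members lower and 0 higher, against 4.02% and 3.76% of all genes (7.78% together). At that threshold DESeq2 gave 2 members, limma 7 and edgeR with a block by replicate number 2. With edgeR and 1 library left out, this count ran from 1 (without MPTP 1) to 5 (without MPTP 2 or without MPTP 3). It was 2 without MPTP_MCTKD 2 or without MPTP_MCTKD 3. No gene of the whole table passed at an adjusted p under 0.05 (0%) by edgeR, while DESeq2 called 19 genes, 0 of them members, and limma 0. The groups did not overlap for 7 members that lay lower (14.3% of the 49), against 7.1% of all genes, and for 1 that lay higher, against 6.64%. Among the 7 were Farsb, Qars, Rars, Aars2, Tars2 and 9330182L06Rik. The 95% intervals of 48 members, all but Lars2, lay within a 1.5-fold change.

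**Figure D4:**
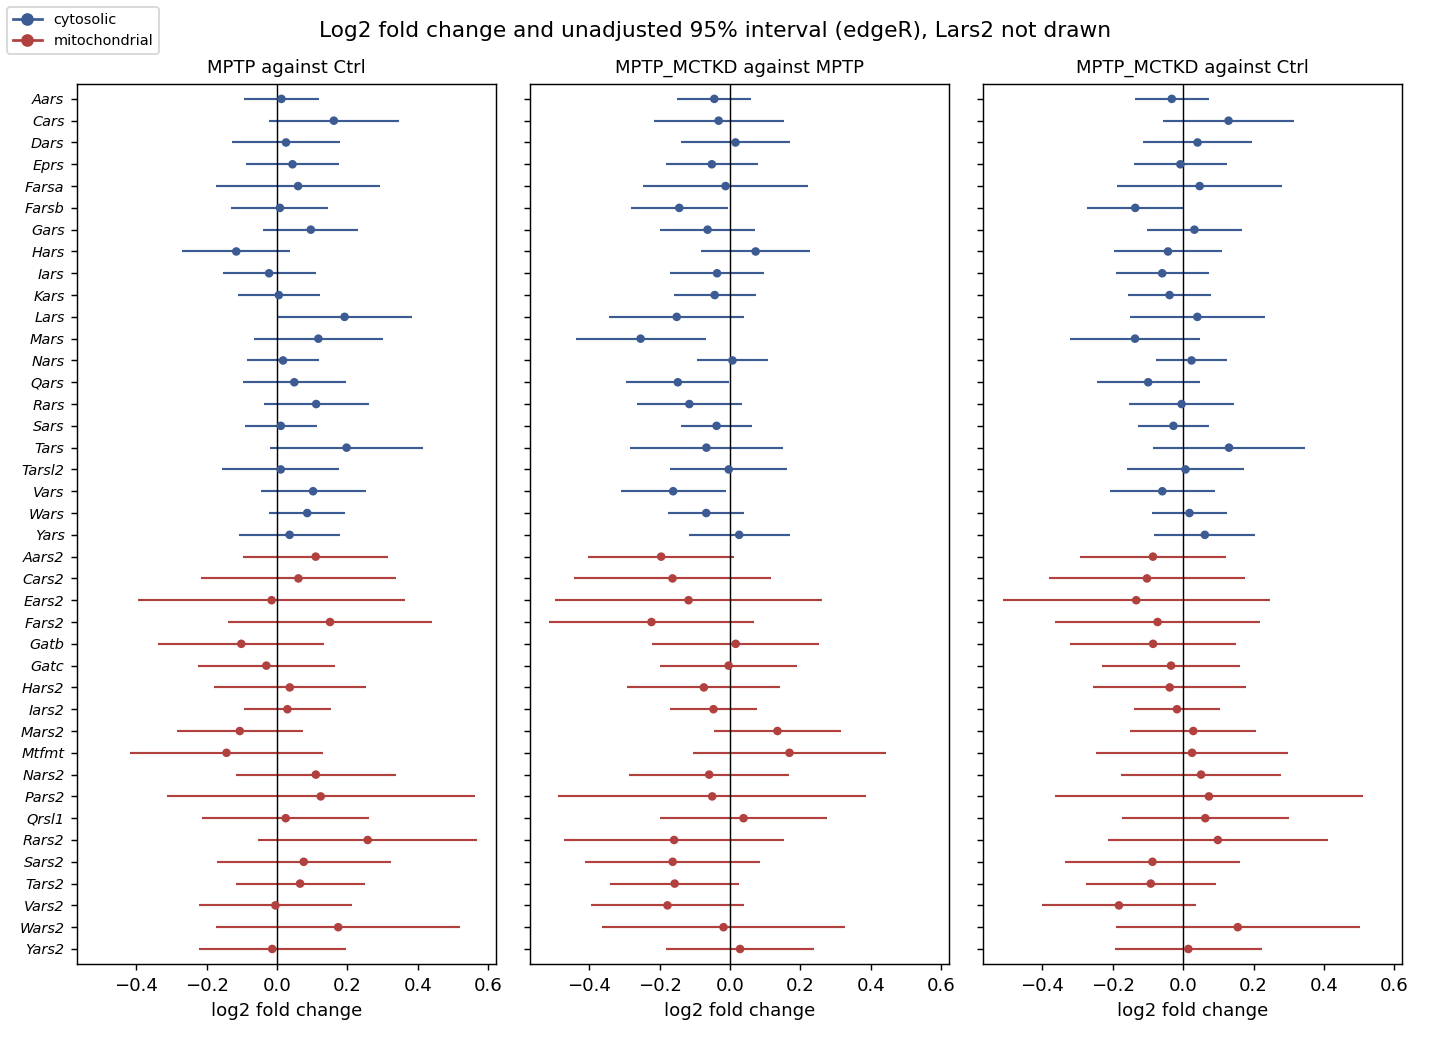
Log2 fold change (points) and unadjusted 95% interval (lines) of 19 mitochondrial (red) and 21 cytosolic (blue) genes in the 3 comparisons, by edgeR. Lars2, whose interval is -1.16 to 3.46 in MPTP against Ctrl, is not drawn. Most points lie right of 0 in the first panel and left of 0 in the second, and the intervals of 36 or more genes include 0 in each panel.

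Set against Ctrl, the members of the MPTP_MCTKD group were divided between both directions. Of the 49 members 23 lay above and 26 below, against 49.5% and 50.5% of all genes. Of the cytosolic genes 10 lay above and 11 below, and of the mitochondrial genes 8 above and 13 below. The median log2 fold change was -0.0043 for cytosolic and -0.038 for mitochondrial members. For the 17 mitochondrial synthetases without the accessory enzymes it was also -0.038. The cytosolic median of single libraries was -0.023, 0.034 and -0.042 in MPTP_MCTKD, and -0.019, 0.037 and -0.023 in Ctrl, ranges that overlap although MPTP_MCTKD 3 lies below all Ctrl libraries. The mitochondrial median was -0.042, -0.029 and -0.024 in MPTP_MCTKD, and 0.031, -0.029 and -0.0098 in Ctrl, below 0 in every MPTP_MCTKD library, with ranges that overlap as well. No member passed the test or had an unadjusted p under 0.05, against 3.36% of all genes higher and 3.36% lower (6.73% together), and 0% passed at an adjusted p under 0.05. DESeq2 called 14 genes, 0 of them members, and limma 0, and at an unadjusted p under 0.05 DESeq2 gave 0 members and limma 1.

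Farsb had the smallest p, with 65.9, 64.0 and 61.2 CPM in MPTP_MCTKD, and 65.5, 69.3 and 75.2 CPM in Ctrl. One MPTP_MCTKD library lay within the Ctrl range, and the log2 fold change was -0.14 (SE 0.064, adjusted p = 0.742). Mars averaged 42.5 ± 3.21 CPM in MPTP_MCTKD and 46.7 ± 2.84 CPM in Ctrl (SD, n = 3 each; adjusted p = 0.815). Cars averaged 37.4 ± 3.75 CPM in MPTP_MCTKD and 34.2 ± 2.14 CPM in Ctrl (SD, n = 3 each; adjusted p = 0.828). Qars averaged 38.4 ± 2.24 CPM in MPTP_MCTKD and 41.2 ± 0.949 CPM in Ctrl (SD, n = 3 each; adjusted p = 0.831).

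In mitochondria, Vars2 had 16.9, 18.005 and 21.7 CPM in MPTP_MCTKD, and 21.5, 20.97 and 21.8 CPM in Ctrl (adjusted p = 0.785, log2 fold change -0.18). MPTP_MCTKD 3 was inside the Ctrl range. Tars2 and Wars2 had log2 fold changes of -0.092 and 0.16. The groups did not overlap for 1 member higher, Esf1, against 6.28% of all genes, and for 1 lower, Qars, against 6.4%. With FPKM in place of CPM such members numbered 6 in both directions together.

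The 2 selenocysteine enzymes did not pass the test in any comparison. Sepsecs, the selenium-adding enzyme, averaged 19.4 ± 1.43 CPM in MPTP_MCTKD, 21.5 ± 0.721 CPM in MPTP, against 19.2 ± 1.23 CPM in Ctrl (SD, n = 3 each), and its adjusted p was 0.716 or above in each comparison. Pstk, the kinase that precedes it, averaged 13.8 ± 0.933 CPM in MPTP_MCTKD, 15.1 ± 1.75 CPM in MPTP, against 13.9 ± 0.428 CPM in Ctrl. Exons of Pstk overlap those of Ikzf5 on the other strand over 58.8% of their bases. Of the members without a tRNA role in Swiss-Prot, 9330182L06Rik averaged 65.7 ± 0.635 CPM in MPTP_MCTKD, 71.3 ± 4.34 CPM in MPTP, against 65.5 ± 1.60 CPM in Ctrl (SD, n = 3 each; adjusted p = 0.904 in MPTP against Ctrl).

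Genes that act with the synthetases showed no call either. The scaffold genes Aimp1, Aimp2 and Eef1e1 hold several cytosolic synthetases in one complex. Aimp2 averaged 10.1 ± 0.747 CPM in MPTP_MCTKD, 11.8 ± 1.11 CPM in MPTP, against 11.5 ± 0.307 CPM in Ctrl (SD, n = 3 each), and its libraries in MPTP_MCTKD lay below those of both other groups (adjusted p = 0.662 against MPTP and 0.810 against Ctrl). Of 7 genes of tRNA proofreading and peptidyl-tRNA release, 5 lay below Ctrl in MPTP and 7 lay below Ctrl in MPTP_MCTKD, where the median was -0.14 and 0 had an unadjusted p under 0.05. Of these Dtd1, a deacylase that removes D-amino acids, averaged 49.1 ± 4.39 CPM in MPTP_MCTKD and 54.5 ± 4.27 CPM in Ctrl (SD, n = 3 each; adjusted p = 0.772). A list of 7 genes held the elongation factors that carry charged tRNA to the ribosome together with their partner factors. Its medians were 0.021 in MPTP against Ctrl and -0.039 in MPTP_MCTKD against MPTP, and none had an unadjusted p under 0.05.

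Of 24 genes of amino acid synthesis, uptake and the ATF4 response, 22 were tested and 0 passed in any comparison. Asns averaged 90.6 ± 6.29 CPM in MPTP_MCTKD, 94.4 ± 2.97 CPM in MPTP, against 90.2 ± 2.65 CPM in Ctrl, and Atf4 averaged 123 ± 5.89 CPM in MPTP_MCTKD, 125 ± 17.4 CPM in MPTP, against 123 ± 5.38 CPM in Ctrl (SD, n = 3 each). In MPTP_MCTKD against MPTP 1 of the 22 genes was higher and 4 were lower at an unadjusted p under 0.05, against 3.76% of all genes higher and 4.02% lower. The higher one was Slc38a2, a carrier of small neutral amino acids, with 246 ± 19.9 CPM in MPTP_MCTKD and 184 ± 9.35 CPM in MPTP (SD, n = 3 each; log2 fold change 0.42, adjusted p = 0.550). Among the lower ones was Slc1a5, a glutamine carrier, with 2.36 ± 0.387 CPM in MPTP_MCTKD and 3.81 ± 0.185 CPM in MPTP (SD, n = 3 each; log2 fold change -0.69, adjusted p = 0.593).

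In MPTP_MCTKD against Ctrl, 2 of the 22 genes were lower at an unadjusted p under 0.05 and 0 were higher. The share over all genes was 3.36% in each direction. In MPTP against Ctrl, 2 of the 22 genes were lower at that threshold and 0 were higher, against 2.69% of all genes lower and 2.68% higher. Ddit4, an inhibitor of mTORC1, averaged 32.2 ± 1.88 CPM in MPTP, against 44.0 ± 9.62 CPM in Ctrl, and Slc38a2 averaged 184 ± 9.35 CPM in MPTP, against 222 ± 31.9 CPM in Ctrl (SD, n = 3 each; adjusted p = 0.893 for both). Of the genes that sense uncharged tRNA, the GCN2 gene Eif2ak4 averaged 30.4 ± 1.35 CPM in MPTP_MCTKD, 29.2 ± 1.65 CPM in MPTP, against 28.2 ± 2.10 CPM in Ctrl (SD, n = 3 each). Its activator Gcn1l1 averaged 83.2 ± 1.83 CPM in MPTP_MCTKD and 95.03 ± 4.78 CPM in MPTP without overlap (SD, n = 3 each; log2 fold change -0.19, adjusted p = 0.587).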

How the data were processed

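The authors deposited 1 table that holds raw counts and FPKM values of each gene in each library, per the file headers. The builds mm10 and GRCm38 are named in the submitters' processing notes; no source used here gives the aligner, counter, annotation release or strand setting. Libraries were mapped by column name to their titles, and 10 lines naming no gene were left out. All library pairs differed by more than sampling noise.

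Counts were tested with edgeR 4.0.16 in R 4.3.3 (robust quasi-likelihood test, TMM scaling, all 9 libraries in 1 model, genes of mean FPKM at least 0.5), with Benjamini-Hochberg adjustment over all 14949 genes and a threshold of 0.05. The method was tested on simulated data. CPM values use TMM-scaled totals. DESeq2 1.42.0 and limma 3.58.1 on log2(FPKM + 0.1) were alternatives, with other scalings and filters and each library left out in turn. Deviations of same-numbered libraries from their group means had correlations of 0.182, 0.107 and 0.113 between MPTP_MCTKD and MPTP. They were -0.0085, -0.151 and 0.047 between MPTP and Ctrl, and 0.078, -0.0073 and 0.0079 between MPTP_MCTKD and Ctrl. Such correlations were not computed for libraries of different number, so whether the numbers mark pairs was not tested. A block by number gave no call among members.

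Named genes were the 4 cytosolic and 3 mitochondrial members of smallest p in each comparison, the 3 highest and 3 lowest of each class, those of both compartments and the accessory enzymes, and up to 2 genes of each other list. Other genes were named after their values were seen. One gene that the rule takes is not reported here by name and is not drawn, but stays in the counts. Members and lists were chosen with earlier results of these data known. Coordinates come from GENCODE M21 (GRCm38), and sequence likeness of Lars2 from BLAST 2.17.0.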

Additional observations from a re-analysis of the deposited data

How the results depend on the processing

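The count of members called was 0 in each comparison under all 21 alternatives run for it. The median log2 fold change of the mitochondrial members in MPTP_MCTKD against MPTP was -0.074, and became -0.13 with limma on log2(FPKM + 0.1). For members whose symbol ends in 2, which take in the cytosolic Tarsl2 and leave out the accessory enzymes, the median was -0.13 (-0.131). The ranges that follow are for the mitochondrial members by role. With 1 library left out it ran from -0.137 (without MPTP_MCTKD 3) to -0.052 (without MPTP 1). The cause was not tested. Members that did not overlap between MPTP_MCTKD and Ctrl numbered 2, against 6 with FPKM in place of CPM and 4 with upper-quartile scaling, both scales chosen after seeing the data. Between MPTP_MCTKD and MPTP such members numbered 8, and up to 12 on another scale. The share over all genes on those other scales is not given here. With the replicate block the members called stayed at 0 in each comparison, and those at an unadjusted p under 0.05 numbered 2 in MPTP_MCTKD against MPTP, where the fit without the block gave 4. For 27 named members, 507 of 540 values kept their direction in MPTP against Ctrl, 514 in MPTP_MCTKD against MPTP and 514 in MPTP_MCTKD against Ctrl, and none passed the threshold. These values reuse the same libraries, and many of the members were named for a small p in them. They are therefore not separate checks of direction. With 3 libraries a group, the 95% intervals of 48 members lay within 1.5-fold in each comparison, and differences of a few percent could not be told from the spread of the libraries.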
